A study of Nothobranchius furzeri with 16 samples.

Results

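The brains of old fish of the strain MZM-0410, killed at 39 weeks post hatching (wph), were compared with the brains of young fish of the strain GRZ, killed at 5 wph, in the annual killifish Nothobranchius furzeri. The comparison takes every library that carries either label, 4 of MZM-0410 at 39 wph and 4 of GRZ at 5 wph, which is 8 of the 16 libraries of total brain RNA in the series, and all 18086 genes with enough reads among the 26739 in the annotation. The remaining 8 libraries come from MZM-0410 fish at 5 wph and at 12 wph, 4 at each age. MZM-0410 was derived from wild-caught fish, and GRZ is a laboratory strain known for an unusually short life. No group carries a transgene or received a treatment, every fish was fasted beforehand and killed at 1 set hour of the day, and the labels give no sex. The groups differ in age and in strain at the same time, so the effects of age and strain cannot be told apart in this comparison. MZM-0410 at 5 wph shares its strain with the old fish and its age with GRZ, and for this reason its values stand beside the main ones, from 2 further comparisons: MZM-0410 at 39 wph over MZM-0410 at 5 wph (age within the strain) and GRZ over MZM-0410 at 5 wph (strain at the same age). All 3 comparisons share libraries with each other, so their results are set side by side and are not independent of each other.

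The killifish brain keeps growing after hatching, and new neurons arise in adults from dividing radial glia and other progenitors that line the ventricles. In this species neurogenesis is known to decline early with age, while glial activation and loss of protein homeostasis come with old age. Fish have retained many gene pairs from an ancient genome duplication, so several human gene names below stand for more than 1 killifish copy, and reads can be shared between close copies.

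Depth ranged from 8.27 to 8.74 M counts in the libraries of MZM-0410 at 39 wph and from 8.8 to 10.6 M counts in those of GRZ at 5 wph, and 21383 to 21475 genes had at least 1 count in old MZM-0410 libraries, against 21382 to 21603 in GRZ libraries. Depth differed a little between the groups, and counts thinned to the smallest library gave 2755 genes higher and 2708 lower in old MZM-0410, close to the full counts given next. The first principal component of the 500 most variable genes held 64.4% of the variance and set all 4 old MZM-0410 libraries (20.3 to 25.4) apart from all 4 GRZ libraries (-25.3 to -20.7). Replicate 9 of the old MZM-0410 fish stood apart from the other 7 libraries on the second component, which held 10.9% (-21.3, against -5.59 to 10.1). Genes of neurons and synapses were abundant in both groups: the named neuronal genes summed to 11433 to 12460 CPM (counts scaled to 1 M per library) in old MZM-0410 libraries and 12193 to 12473 CPM in GRZ libraries.

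Old MZM-0410 brains had 2857 genes higher (15.8% of all genes tested) and 2787 genes lower (15.4%) than young GRZ brains, together 31.2%, at an adjusted p under 0.05 in edgeR's quasi-likelihood test with 8 libraries. Of these, 435 genes were more than 2-fold higher (2.41%) and 449 more than 2-fold lower (2.48%). The median log2 fold change of all genes tested was -0.002, and the median size of the change was 0.24 on the log2 scale. The 4 old libraries lay entirely above the 4 GRZ libraries in CPM for 2641 genes (14.6%) and entirely below them for 2772 genes (15.3%), together 29.9% of the genes tested. Within MZM-0410, 39 wph over 5 wph, 2203 genes were higher (12.3%) and 2257 lower (12.6%). Between the strains at 5 wph, 979 genes were higher in GRZ (5.44%) and 844 lower (4.69%). Libraries of young MZM-0410 were shallower, at 3.93 to 8.24 M counts, which limits both comparisons that use them. With counts thinned to the smallest library, age within MZM-0410 gave 1911 genes higher and 1759 lower. Thinning left 793 genes higher and 572 lower in GRZ than in MZM-0410 at 5 wph. That strain comparison depended most on single libraries: the genes higher in GRZ fell to 599 without MZM-0410 replicate 12 and 650 without replicate 14, and those lower in GRZ to 562 without MZM-0410 replicate 11, 456 without replicate 12, 485 without GRZ replicate 1 and 537 without GRZ replicate 2.

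Symbols of human orthologues were held for 5189 of the tested genes, and they were held more often for genes past the threshold (37.4%) than for the rest (24.8%). Among the genes with a symbol, 17.3% were higher and 23.3% lower in old MZM-0410 than in young GRZ. The corresponding shares were 19.9% and 22.4% for old over young MZM-0410 and 8.86% and 5.89% for GRZ over MZM-0410 at 5 wph, and counts within gene lists are to be read against these shares. The lists and their members were chosen with earlier results of these data known, so an excess over the shares describes a list and is not a test of it. In whole-brain RNA, fewer cells of a type and less RNA per cell cannot be told apart. The plot of fold change against level shows that the called genes spread over the whole range of levels, in both directions.

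**Figure D1:**
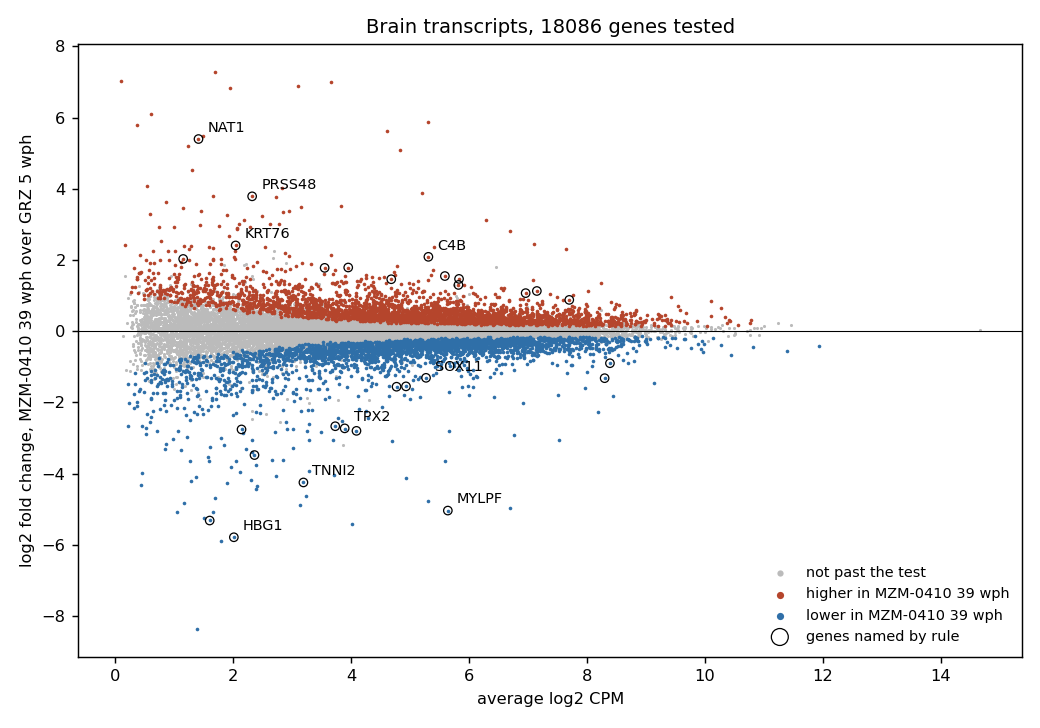
Each point is a gene: the x axis gives its average level (log2 CPM over the 8 libraries) and the y axis its log2 fold change, MZM-0410 39 wph over GRZ 5 wph. Red genes (2857) were higher and blue genes (2787) lower in old MZM-0410 at an adjusted p under 0.05, grey genes did not pass, and circles mark the genes named by rule, from HBG1 at -5.79 to NAT1 at 5.40.

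Genes of the cell cycle were lower in old MZM-0410 brains. Of 49 tested members of the list, 34 were lower and 0 higher (1 higher without old MZM-0410 replicate 10), 23 of them by more than 2-fold, with a median log2 fold change of -0.86. TPX2, which nucleates microtubules on the mitotic spindle, had the smallest p among all named genes lower in old fish. Its levels were 3.5, 3.95, 3.36 and 4.16 CPM in old MZM-0410 brains, against 26.2, 24.1, 25.4 and 25.1 CPM in GRZ brains. The groups were far apart and tight within themselves, and the difference was 6.65-fold (log2 fold change -2.73 ± 0.11 SE, adjusted p = 1.43e-07). TOP2A, the topoisomerase that untangles replicated chromosomes, had 39.5, 23.5, 40.5 and 46.1 CPM in old MZM-0410 and 131, 129, 135 and 146 CPM in GRZ (log2 fold change -1.84 ± 0.15, adjusted p = 1.69e-05). The abnormal spindle gene ASPM had 7.59, 10.7, 6.84 and 5.2 CPM in old MZM-0410 and 26.5, 20.1, 21.5 and 21.8 CPM in GRZ (-1.56 ± 0.18, adjusted p = 0.000168). The mitotic cyclin CCNB2 had 14.7, 15.6, 14.5 and 10 CPM in old MZM-0410 and 32.4, 29, 35.7 and 26 CPM in GRZ (-1.16 ± 0.14, adjusted p = 0.000209). In none of these genes did the libraries of the groups overlap. They were named for their small p, so this is not a separate result.

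Young GRZ and young MZM-0410 also differed in these genes, in both directions. Within MZM-0410, 42 of the 49 cell cycle genes were lower at 39 wph and 0 higher, with a median of -1.40, whereas at 5 wph 21 were lower and 3 higher in GRZ than in MZM-0410, with a median of -0.50. TOP2A and TPX2 went the other way: TOP2A had 55.7 to 70.8 CPM and TPX2 14 to 17.9 CPM in young MZM-0410, and GRZ exceeded it by 1.09 ± 0.08 (adjusted p = 6.3e-06) and 0.62 ± 0.11 (adjusted p = 0.00407) on the log2 scale. ASPM was lower in GRZ than in young MZM-0410 (26.2 to 36.5 CPM) by a log2 fold change of -0.50 (adjusted p = 0.0248), and for CCNB2 the strain difference was 0.02 (adjusted p = 0.958). Among tested histones and proteins that package DNA, 19 of 41 were lower in old MZM-0410 than in GRZ and 4 higher, with a median of -0.31. The condensin subunit SMC4 had 25.3, 25.6, 29.2 and 26.9 CPM in old MZM-0410, against 49.3, 46.5, 48.6 and 54.7 CPM in GRZ (-0.88 ± 0.08, adjusted p = 3.81e-05). The histone gene HIST1H2BG had 2.65, 3.35, 3.02 and 2.77 CPM in old MZM-0410 and 18.5, 8.2, 15.2 and 15 CPM in GRZ (-2.25 ± 0.24, adjusted p = 8.44e-05), so that its lowest GRZ library was still above the highest old library. H2AFV, a histone H2A variant, was lower by -1.18 ± 0.12 on the log2 scale (adjusted p = 5.09e-05). SMC5 went against the list: it encodes a subunit of a complex that acts in recombination repair, and it had 1240, 1376, 1720 and 1313 CPM in old MZM-0410 and 762, 800, 752 and 837 CPM in GRZ (0.85 ± 0.09, adjusted p = 7.5e-05).

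Genes of neural progenitors and immature neurons were also lower in old MZM-0410. Of 41 tested members 25 were lower and 3 higher (1 higher without old MZM-0410 replicate 6 or without GRZ replicate 2), and the median was -0.32. The RNA-binding protein gene IGF2BP3, used mostly in embryonic and growing tissue, had 2.77, 4.19, 3.02 and 3.93 CPM in old MZM-0410, against 22.6, 22.7, 21.2 and 23.3 CPM in GRZ (-2.67 ± 0.14, adjusted p = 9.68e-07). SOX11, a transcription factor of newborn neurons, had 20.7, 24.7, 22.4 and 19.6 CPM in old MZM-0410 and 53.6, 57.4, 52.4 and 55.8 CPM in GRZ (-1.31 ± 0.09, adjusted p = 4.89e-06). Its relative SOX4 had 23.3 to 25.5 CPM in old MZM-0410 and 46 to 48.8 CPM in GRZ (-0.96 ± 0.07, adjusted p = 9.94e-06). DPYSL5, which acts in the growth of axons and dendrites, had 265 to 308 CPM in old MZM-0410 and 474 to 539 CPM in GRZ (-0.80 ± 0.06, adjusted p = 7.12e-06), and its second copy was lower by -0.73 ± 0.11 (adjusted p = 0.000605). In the copies with levels given, every old library lay below every GRZ library, which follows largely from naming genes by small p. None of the 4 passed the test between the strains at 5 wph: GRZ over MZM-0410 gave log2 fold changes of 0.36 for IGF2BP3 (adjusted p = 0.0556), -0.00 for SOX11 (adjusted p = 0.988), 0.02 for DPYSL5 (adjusted p = 0.851) and 0.15 for SOX4 (adjusted p = 0.213), and 1 of the 41 genes was higher and 5 lower in GRZ. Within MZM-0410 24 of the 41 were lower at 39 wph and 2 higher.

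**Figure D2:**
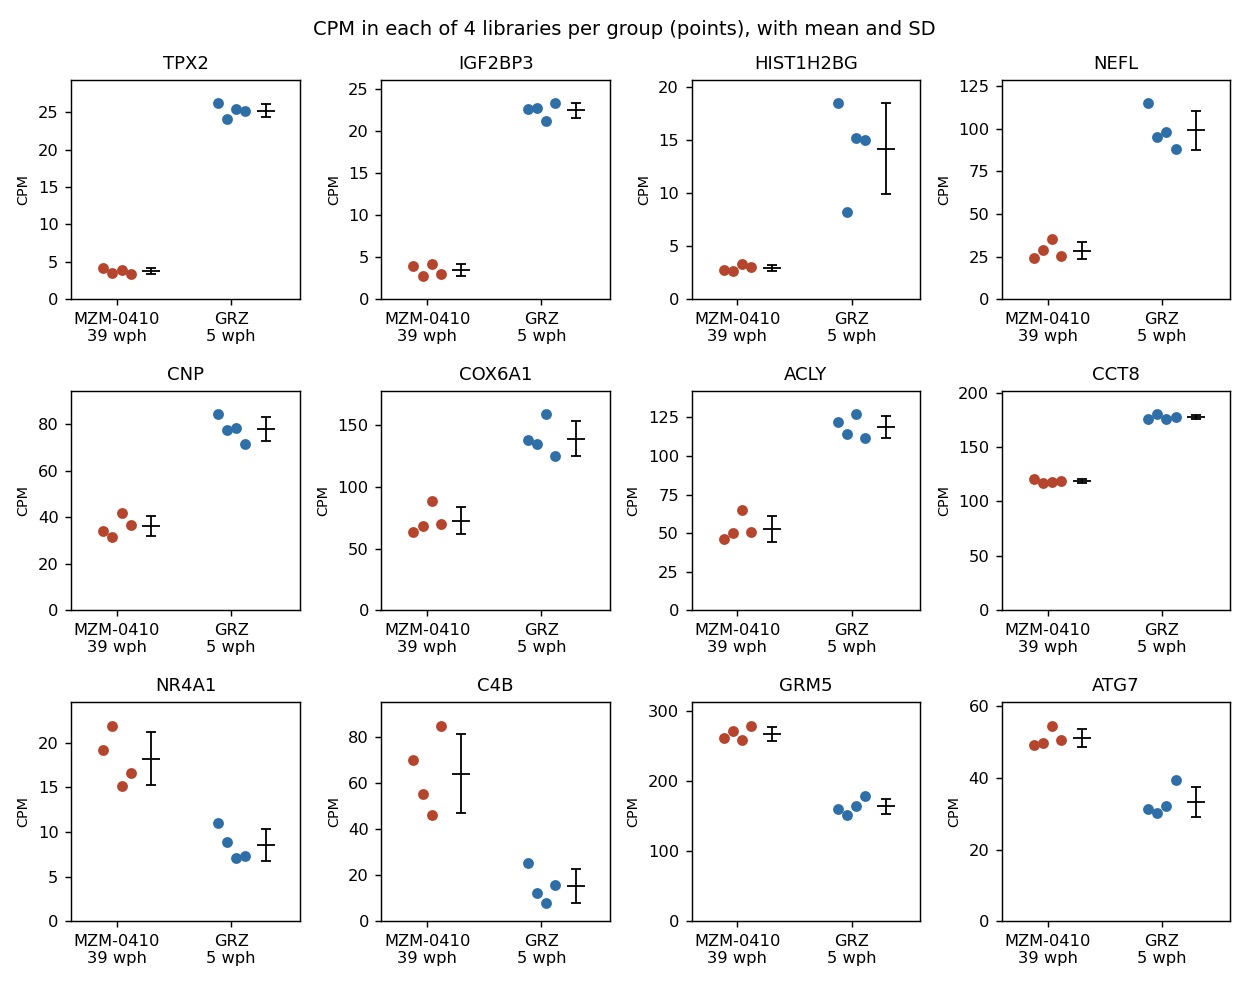
CPM of 12 genes in each of the 4 libraries of MZM-0410 at 39 wph (left, red points) and of GRZ at 5 wph (right, blue points), on linear axes that start at 0, with the mean and SD of each group in black. The groups do not overlap in any of the 12 genes, as for TPX2 with 3.36 to 4.16 CPM in old MZM-0410 and 24.1 to 26.2 CPM in GRZ. The genes were picked among those named for small p or large fold change, so the lack of overlap follows largely from the choice.

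Neuronal genes were lower on balance in old MZM-0410, and synaptic genes moved both ways. Of 33 tested neuronal genes, 19 were lower and 5 higher, with a median of -0.31. NEFL, the light subunit of the neurofilaments that fill large axons, showed a 3.47-fold difference in the copy with the smallest p: 28.7, 35.2, 25.6 and 23.9 CPM in old MZM-0410, against 115, 95.2, 98.3 and 87.9 CPM in GRZ (-1.79 ± 0.12, adjusted p = 5.19e-06). The second NEFL copy was lower too (-1.28 ± 0.18, adjusted p = 0.000534). The neurofilament partner INA, alpha-internexin, had 123 to 153 CPM in old MZM-0410 and 244 to 282 CPM in GRZ (-0.85 ± 0.08, adjusted p = 2.93e-05). CHAT, the enzyme that makes acetylcholine, was lower in both copies with a name, which had 61.4 to 71.8 and 9.01 to 14.3 CPM in old MZM-0410, against 108 to 111 and 26 to 28.5 CPM in GRZ (log2 fold changes -0.72 ± 0.07 and -1.23 ± 0.13, adjusted p = 2.92e-05 and 6.22e-05). For the copies with values given, GRZ over MZM-0410 at 5 wph gave log2 fold changes from -0.07 for INA to 0.25 for NEFL, with adjusted p of 0.168 or more. Among 62 tested genes of synaptic transmission 23 were higher and 9 lower in old MZM-0410, and the median was 0.10. GRM5, a metabotropic glutamate receptor, had 271, 258, 279 and 261 CPM in old MZM-0410 and 160, 152, 165 and 178 CPM in GRZ (0.72 ± 0.06, adjusted p = 1.42e-05), and its second copy had 0.11 (adjusted p = 0.187). GABRD, a subunit of the GABA-A receptor, was higher by 0.66 ± 0.08 (adjusted p = 0.000286), and BSN, a scaffold of the presynaptic active zone, by 0.44 ± 0.05 (adjusted p = 0.000155). Within MZM-0410 18 of the synaptic genes were higher and 11 lower at 39 wph, and at 5 wph GRZ had 3 higher and 7 lower than MZM-0410.

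Myelin genes were lower in old MZM-0410. Of 15 tested genes of oligodendrocytes and myelin 8 were lower and 2 higher, with a median of -0.66, and the 2 higher genes were 1 without old MZM-0410 replicate 8, 9 or 10 or without GRZ replicate 2 or 3. CNP, an enzyme bound to myelin membranes, had 31.5, 41.6, 36.8 and 34.1 CPM in old MZM-0410, against 84.1, 77.4, 78.2 and 71.3 CPM in GRZ (-1.10 ± 0.09, adjusted p = 1.86e-05). MBP, myelin basic protein, had 233, 286, 200 and 236 CPM in old MZM-0410 and 374, 432, 373 and 405 CPM in GRZ in the copy with the smallest p (-0.72 ± 0.10, adjusted p = 0.000364), while a second copy had a log2 fold change of -0.13 (adjusted p = 0.31). ENPP6, a choline phosphodiesterase that in the mouse marks newly forming oligodendrocytes, was higher: 57.9, 63.1, 47 and 64.2 CPM in old MZM-0410, against 20.3, 21.1, 25.2 and 19 CPM in GRZ (1.45 ± 0.12, adjusted p = 1.42e-05), and its second copy had a log2 fold change of 0.05 (adjusted p = 0.871). Age within MZM-0410 gave 7 lower and 3 higher of the 15, and the strains at 5 wph differed in 5, with 3 higher and 2 lower in GRZ.

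Of 16 tested astrocyte and radial glia genes 4 were higher and 2 lower in old MZM-0410, with a median of -0.00 (4 lower without old MZM-0410 replicate 9), so the list did not move as a whole. CYP19A1, the brain aromatase that fish radial glia use to make estrogens, had 70.9, 53.9, 56.1 and 63.3 CPM in old MZM-0410, against 25.2, 15, 23.7 and 18.3 CPM in GRZ (1.59 ± 0.15, adjusted p = 3.62e-05). The GABA transporter SLC6A11 was lower, with 245 to 340 CPM in old MZM-0410 and 497 to 596 CPM in GRZ (-0.89 ± 0.10, adjusted p = 8.34e-05). FABP7, a fatty acid binding protein of radial glia, had 138 to 234 CPM in old MZM-0410 and 292 to 424 CPM in GRZ (-0.97 ± 0.15, adjusted p = 0.000692). Of 10 tested microglia and macrophage genes 3 were higher and 0 lower, with a median of 0.21 (1 lower without GRZ replicate 1). CD68, a lysosomal glycoprotein of macrophages, had 32.7, 24.2, 35 and 21 CPM in old MZM-0410 and 19, 13.3, 9.25 and 12.4 CPM in GRZ, just without overlap (1.08 ± 0.22, adjusted p = 0.00344). APOE, a lipid carrier made by glia, was higher by 0.38 ± 0.09 (adjusted p = 0.00693), and its second named copy had 0.48 with an adjusted p of 0.18.

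Complement and related immune genes were higher in some members. In the list of 21 complement and coagulation genes 7 were higher, with a median of 0.36, and 2 were lower (1 without GRZ replicate 1, 2 or 3 or without old MZM-0410 replicate 6, 9 or 10). C4B, a complement component that marks surfaces for uptake, had 55.3, 46.2, 85.2 and 70.1 CPM in old MZM-0410, against 25.5, 12.3, 8.01 and 15.7 CPM in GRZ (2.09 ± 0.29, adjusted p = 0.000442). SERPING1, the inhibitor of the complement starter protease C1, had 2.77, 6.11, 2.78 and 1.62 CPM in old MZM-0410 and 0.569, 1, 1.05 and 0.565 CPM in GRZ (2.03 ± 0.43, adjusted p = 0.00458). One copy of the central component C3 was at 1.81 to 4.27 CPM in old MZM-0410 and 0.339 to 0.954 CPM in GRZ (2.01 ± 0.39, adjusted p = 0.00286), and its other named copies did not pass. The coagulation starter F3 (0.92 ± 0.10, adjusted p = 0.000115 in 1 copy, and -0.10, adjusted p = 0.636 in the other) and the chaperone-like CLU (0.36 ± 0.07, adjusted p = 0.00274) were also higher. SERPING1 was higher in young MZM-0410 than in GRZ too: at 5 wph GRZ over MZM-0410 gave -1.94 (adjusted p = 0.0134), and age within MZM-0410 gave 0.09 (adjusted p = 0.913), whereas C4B gave 1.24 for age (adjusted p = 0.00549) and -0.84 for strain (adjusted p = 0.146). At 12 wph, however, SERPING1 had 0.548, 0.952, 1.24 and 1.39 CPM in MZM-0410, which overlapped GRZ, so MZM-0410 was not above GRZ at every age.

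Interferon genes gave less stable counts. Of 20 tested, 5 were higher in old MZM-0410 and 0 lower, with a median of 0.35; the 5 became 3, 8 and 2 without old MZM-0410 replicates 6, 8 and 9 and 8 and 3 without GRZ replicates 1 and 3, and 1 gene was lower without GRZ replicate 4. The kinase EIF2AK2, which senses viral RNA, had 29.4, 26.7, 35.6 and 39.1 CPM in old MZM-0410 and 23.1, 18.1, 20.4 and 18.1 CPM in GRZ (0.73 ± 0.13, adjusted p = 0.00204), and its second copy did not pass (0.70, adjusted p = 0.0645). NLRC5, an activator of MHC class I genes, had 21.5, 19.8, 27.5 and 28.6 CPM in old MZM-0410, against 8.99, 11, 9.25 and 10.6 CPM in GRZ (1.30 ± 0.14, adjusted p = 0.000107). For NLRC5 the young MZM-0410 libraries, at 10 to 10.9 CPM, lay close to GRZ, with a strain difference of -0.07 (adjusted p = 0.776). Only 2 of 7 antigen presentation genes passed, NLRC5 and a B2M copy (0.93 ± 0.25, adjusted p = 0.0155, beside 0.23, adjusted p = 0.198, in the other copy), with 0 lower (1 without GRZ replicate 4) and a median of 0.09.

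**Figure D3:**
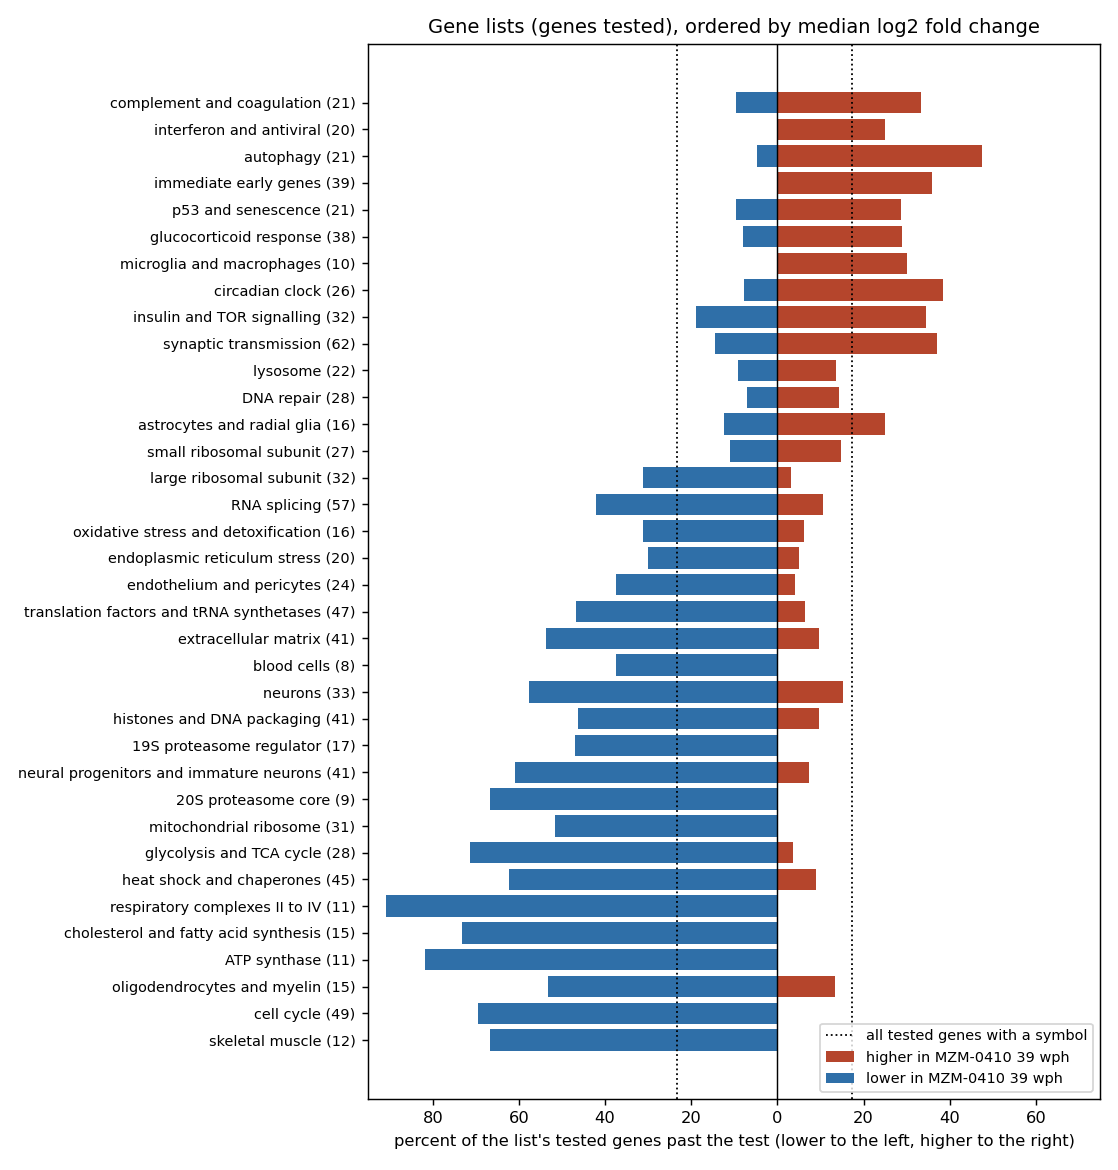
For each gene list with at least 8 tested genes (number in parentheses), bars give the percent of its genes that passed the test, higher in MZM-0410 39 wph than in GRZ 5 wph to the right and lower to the left. Dotted lines mark the shares among all tested genes with a symbol, 17.3% higher and 23.3% lower. The lists were chosen with earlier results of these data known. Cell cycle genes reach 69.4% lower and autophagy genes 47.6% higher.

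Immediate early genes, which cells switch on within minutes of activity or stress, were higher in old MZM-0410 than in GRZ, but by less than within MZM-0410. Of 39 tested members 14 were higher and 0 lower, with a median of 0.27. EGR4, an activity-dependent transcription factor, had 82, 75.6, 78.8 and 84.2 CPM in old MZM-0410, against 54.4, 55.9, 55.8 and 58.4 CPM in GRZ and 36 to 46.3 CPM in young MZM-0410 (0.52 ± 0.06, adjusted p = 0.000207). NR4A1, a nuclear receptor of the same class, had 21.9, 15.1, 16.6 and 19.2 CPM in old MZM-0410, against 11, 8.91, 7.06 and 7.34 CPM in GRZ and 2.39 to 5.33 CPM in young MZM-0410 (1.10 ± 0.17, adjusted p = 0.000803). Young GRZ thus lay between the old and the young MZM-0410 in both genes, and the strain differences at 5 wph passed the test (0.53 for EGR4, adjusted p = 0.0035, and 1.21 for NR4A1, adjusted p = 0.00971). GADD45B, a gene of growth arrest and DNA damage, had 40, 34.4, 51.9 and 49.2 CPM in old MZM-0410 and 18.3, 25.5, 17.2 and 23.5 CPM in GRZ (1.06 ± 0.16, adjusted p = 0.000692), and for this gene the strain difference was 0.46 (adjusted p = 0.0987). A second copy of each of these 3 genes did not pass, with 0.10 for EGR4 (adjusted p = 0.487), -0.25 for NR4A1 (adjusted p = 0.705) and 0.61 for GADD45B (adjusted p = 0.075). Over the list, 33 of 38 tested genes were higher and 1 lower with age within MZM-0410 (median 1.10), and 26 were higher and 1 lower in GRZ than in MZM-0410 at 5 wph (median 0.72).

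Genes of the glucocorticoid response, of p53 and senescence and of the clock also had positive medians in old MZM-0410 over GRZ, each smaller than for age within MZM-0410. For the glucocorticoid response 11 of 38 genes were higher and 3 lower in old MZM-0410 than in GRZ (median 0.24; 7 higher without old MZM-0410 replicate 10 or without GRZ replicate 1), against 28 higher and 2 lower for age within MZM-0410 (median 0.68) and 20 higher and 3 lower for GRZ over MZM-0410 at 5 wph (median 0.41). The mineralocorticoid receptor NR3C2 was higher in both named copies, with 164, 155, 162 and 150 CPM in old MZM-0410 against 80.5, 66.7, 85.9 and 105 CPM in GRZ in the more abundant copy (0.91 ± 0.11, adjusted p = 0.000171) and 0.85 ± 0.12 in the other (adjusted p = 0.000534). The glucocorticoid receptor NR3C1 had 75, 73.7, 67.5 and 72.2 CPM in old MZM-0410 and 48.7, 48.5, 48.5 and 53.4 CPM in GRZ (0.54 ± 0.07, adjusted p = 0.000234). PIK3R1, a regulatory subunit of PI3 kinase, was lower in old MZM-0410, at 176 to 184 CPM against 225 to 242 CPM in GRZ (-0.38 ± 0.05, adjusted p = 0.000367), while age within MZM-0410 gave -0.02 (adjusted p = 0.813) and GRZ over MZM-0410 at 5 wph 0.36 (adjusted p = 0.00367). Its other, more abundant copy had -0.00 (adjusted p = 0.998).

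Of 21 tested genes of p53 and senescence 6 were higher and 2 lower (1 lower without old MZM-0410 replicate 9 or without GRZ replicate 2 or 4), with a median of 0.27. LMNB1, the lamin that proliferating cells keep and senescent cells lose, had 35.8, 32.2, 32.6 and 34.4 CPM in old MZM-0410 and 72.6, 67, 80.4 and 50.4 CPM in GRZ (-0.99 ± 0.12, adjusted p = 0.00022). PLK2, a kinase induced by p53 and by neuronal activity, had 218, 204, 226 and 235 CPM in old MZM-0410, against 179, 173, 158 and 147 CPM in GRZ and 79.2 to 104 CPM in young MZM-0410 (0.44 ± 0.07, adjusted p = 0.00143). Of 26 clock genes 10 were higher (5 without old MZM-0410 replicate 10 or GRZ replicate 1, and 6 without GRZ replicate 2 or 3) and 2 lower, with a median of 0.19. NR1D2, a repressor in the clock loop, had 23, 18.3, 18.8 and 21 CPM in old MZM-0410 and 5.35, 8.81, 6.96 and 9.82 CPM in GRZ (1.40 ± 0.17, adjusted p = 0.000198) in 1 of its 4 copies. The other 3 did not pass: the more abundant ones averaged 155 CPM each in old MZM-0410 against 181 and 186 CPM in GRZ (-0.21 and -0.26, adjusted p = 0.0737 and 0.0808), and the last had 0.02 (adjusted p = 0.929). CIART, a repressor of the CLOCK and BMAL1 pair, had 14.7, 14.6, 15.5 and 13.2 CPM in old MZM-0410 and 31, 29.3, 29.7 and 35.9 CPM in GRZ (-1.10 ± 0.10, adjusted p = 2.87e-05). NOCT, a rhythmic phosphatase, was lower in old MZM-0410 than in GRZ (11.2 to 15.5 CPM against 21.2 to 32.2 CPM, -0.99 ± 0.15, adjusted p = 0.000679), with an age change within MZM-0410 of 0.22 (adjusted p = 0.278) and a strain difference at 5 wph of 1.22 (adjusted p = 0.000276). Its level was not steady within MZM-0410, at 10.5 to 12.8 CPM at 5 wph and 18.4 to 24.8 CPM at 12 wph, and the latter overlapped GRZ. The second NOCT copy, near 1 CPM, did not pass (0.15, adjusted p = 0.779).

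**Figure D4:**
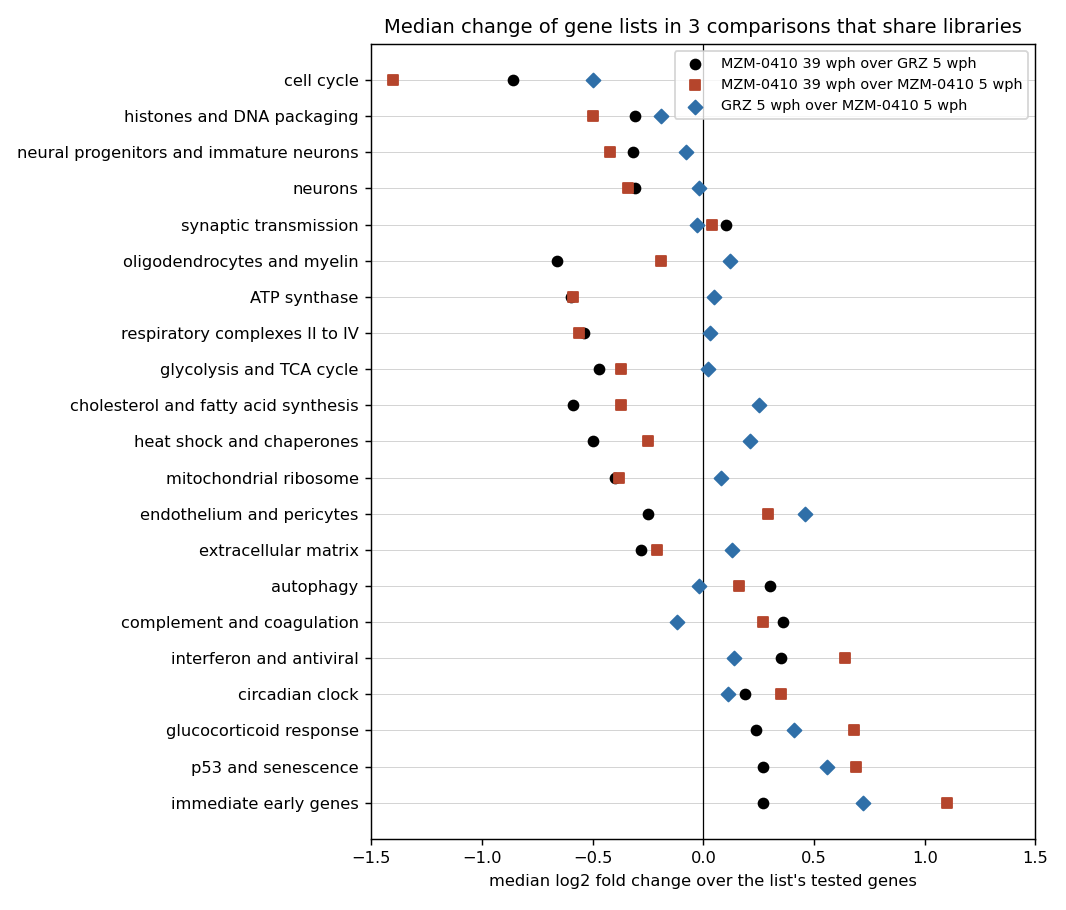
Median log2 fold change of 21 gene lists (x axis) in the comparison of MZM-0410 39 wph over GRZ 5 wph (black circles), of MZM-0410 39 wph over MZM-0410 5 wph (red squares) and of GRZ 5 wph over MZM-0410 5 wph (blue diamonds). The 3 comparisons share libraries. Immediate early genes lie at 0.27, 1.10 and 0.72, and ATP synthase genes at -0.60, -0.59 and 0.05.

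Chaperone genes were lower in old MZM-0410. Of 45 tested heat shock and chaperone genes 28 were lower, with a median of -0.50, and 4 were higher (2 without old MZM-0410 replicate 6 or 10 or without GRZ replicate 1, 2 or 3). A gene with the orthologue name HSPA6, an inducible HSP70 chaperone, had 220, 233, 231 and 247 CPM in old MZM-0410, against 434, 460, 423 and 436 CPM in GRZ (-0.90 ± 0.05, adjusted p = 2.34e-06), and its second copy, at low level, had 0.26 (adjusted p = 0.366). CCT8, a subunit of the ring-shaped chaperonin that folds actin and tubulin, had 117, 118, 119 and 121 CPM in old MZM-0410 and 176, 180, 176 and 178 CPM in GRZ (-0.57 ± 0.05, adjusted p = 2.34e-05). Its partner subunits TCP1 (-0.50 ± 0.06, adjusted p = 0.000126) and CCT3 (-0.55 ± 0.07, adjusted p = 0.000258) were lower by similar amounts. At 5 wph 12 of the chaperone genes were higher and 0 lower in GRZ than in MZM-0410 (median 0.21), and within MZM-0410 20 were lower and 6 higher at 39 wph (median -0.25). The abundant HSPA6 copy passed both tests, with -0.42 for age (adjusted p = 0.000634) and 0.49 for strain (adjusted p = 0.000505).

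All 26 tested genes of the proteasome, the protease that removes ubiquitin-tagged proteins, had negative log2 fold changes. Of 9 genes of the 20S core 6 were lower and 0 higher (median -0.34), and of 17 genes of the 19S regulator 8 were lower and 0 higher (median -0.31). These counts changed with single libraries: the 6 became 3 without old MZM-0410 replicate 9 or 10 or GRZ replicate 1 or 3, and the 8 became 13 without GRZ replicate 4. PSMA6, a core subunit, had 12.2, 11.7, 13.7 and 10.9 CPM in old MZM-0410 and 24.7, 20.4, 22.3 and 18.9 CPM in GRZ in its copy with the smallest p (-0.82 ± 0.12, adjusted p = 0.00053), and its level in young MZM-0410 was 12.9 to 15.1 CPM (GRZ over MZM-0410 at 5 wph 0.67, adjusted p = 0.00463). Its second copy had -0.35 ± 0.11 (adjusted p = 0.0346), a call lost without old MZM-0410 replicate 6, 9 or 10 or GRZ replicate 1 or 3 (adjusted p = 0.0758 to 0.0904). PSMD12, a regulator subunit, had 36, 43.1, 38.4 and 37.8 CPM in old MZM-0410 and 64.4, 53.9, 68.9 and 43.9 CPM in GRZ (-0.56 ± 0.13, adjusted p = 0.00642), where the lowest GRZ library, replicate 4, was just above the highest old library. The median of the 20S genes was -0.39 with age in MZM-0410 and -0.02 between the strains at 5 wph, and that of the 19S genes -0.29 and 0.01.

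Autophagy genes went the other way. Of 21 tested, 10 were higher and 1 lower in old MZM-0410, with a median of 0.30. ATG7, the activating enzyme of the conjugation system that builds autophagosomes, had 49.7, 54.5, 50.6 and 49.2 CPM in old MZM-0410, against 31.4, 30.1, 32 and 39.3 CPM in GRZ (0.63 ± 0.09, adjusted p = 0.000602). WIPI1, which binds the forming membrane, had 27.4, 27.1, 25.9 and 27.8 CPM in old MZM-0410 and 17.1, 17.8, 19 and 20.7 CPM in GRZ (0.55 ± 0.09, adjusted p = 0.00107), with 24.2 to 33.3 CPM in young MZM-0410 (old over young MZM-0410 -0.04, adjusted p = 0.817). The kinase ULK2 was the lower member (-0.35 ± 0.06, adjusted p = 0.00166) and ULK3 was higher (0.61 ± 0.11, adjusted p = 0.00248). Lysosomal genes did not move as a list, with 3 of 22 higher, 2 lower and a median of 0.08. In the list of endoplasmic reticulum stress 6 of 20 were lower and 1 higher (median -0.25), and the 6 became 3 without old MZM-0410 replicate 9 or GRZ replicate 1 or 3 and 13 without GRZ replicate 4. The higher member was ERN1, the stress sensor of the endoplasmic reticulum, at 54.1, 38.7, 43 and 45.7 CPM in old MZM-0410 and 14.9, 17.5, 18.1 and 32.4 CPM in GRZ (1.14 ± 0.21, adjusted p = 0.0019).

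Genes of mitochondrial energy production were lower in old MZM-0410, in most members tested. All 4 named genes of respiratory complex I were lower (median -0.55), 10 of 11 of complexes II to IV (median -0.54) and 9 of 11 of the ATP synthase (median -0.60), with 0 higher in each. Of those 9, a gene named ATP5B (-0.23 ± 0.07, adjusted p = 0.022) has the fish symbol atp6v1ab, so its place in the list is uncertain. Its call was lost without old MZM-0410 replicate 9 or 10 or GRZ replicate 1 or 3. The cytochrome oxidase subunit COX6A1 had 68.7, 88.7, 70.1 and 63.3 CPM in old MZM-0410, against 138, 135, 159 and 125 CPM in GRZ (-0.93 ± 0.10, adjusted p = 0.000122). ATP5G3, which forms the rotating ring of the ATP synthase, had 87.4, 93.4, 71.6 and 79.8 CPM in old MZM-0410 and 141, 132, 154 and 141 CPM in GRZ (-0.76 ± 0.08, adjusted p = 8.96e-05), and its partner subunit ATP5A1 had 101 to 122 CPM in old MZM-0410 and 163 to 190 CPM in GRZ (-0.70 ± 0.08, adjusted p = 0.000104). The second copies of ATP5G3 (-1.03 ± 0.16, adjusted p = 0.000798) and ATP5A1 (-0.60 ± 0.09, adjusted p = 0.000889) were lower too. Young GRZ and young MZM-0410 were close in the medians of these complexes: those of GRZ over MZM-0410 at 5 wph were 0.12, 0.03 and 0.05, beside -0.49, -0.56 and -0.59 for age within MZM-0410. COX6A1 itself passed the test between the strains at 5 wph, higher in GRZ by 0.37 ± 0.09 (adjusted p = 0.0237), beside -0.56 for age within MZM-0410 (adjusted p = 0.00334). Among 28 genes of glycolysis and the citric acid cycle 20 were lower and 1 higher (median -0.47). MDH2, mitochondrial malate dehydrogenase, had 160, 179, 155 and 151 CPM in old MZM-0410 and 260, 248, 281 and 229 CPM in GRZ (-0.65 ± 0.07, adjusted p = 0.000118), and the glycolytic enzyme PKM had 281 to 359 CPM in old MZM-0410 and 474 to 516 CPM in GRZ (-0.61 ± 0.08, adjusted p = 0.000232). The mitochondrial antioxidant SOD2 was also lower, at 30.5, 27.6, 27.7 and 28.1 CPM in old MZM-0410 and 53.6, 45.5, 56.9 and 53.1 CPM in GRZ (-0.87 ± 0.08, adjusted p = 4.33e-05).

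Lipid synthesis followed the same direction, with 11 of 15 genes of cholesterol and fatty acid synthesis lower, 0 higher and a median of -0.59. ACLY, which makes cytosolic acetyl-CoA for lipid synthesis, had 49.8, 64.8, 50.5 and 46.1 CPM in old MZM-0410, against 122, 114, 127 and 112 CPM in GRZ (-1.16 ± 0.10, adjusted p = 1.82e-05), and its second copy was lower by -0.47 ± 0.10 (adjusted p = 0.00414). ELOVL1, an elongase of very long fatty acids, had 21.9, 23.4, 18.3 and 15.4 CPM in old MZM-0410 and 55.6, 52.8, 54.2 and 38.5 CPM in GRZ (-1.34 ± 0.15, adjusted p = 0.000103). SQLE, an early enzyme of the sterol branch, was at low levels, with 1.81, 1.08, 1.04 and 0.808 CPM in old MZM-0410 and 7.17, 8.51, 6.39 and 2.6 CPM in GRZ (-2.37 ± 0.38, adjusted p = 0.00102). GRZ had a positive median over young MZM-0410 for this list (0.25), and the old over young MZM-0410 median was -0.37.

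Cytosolic ribosomal protein genes differed little between the groups. Of 27 small subunit genes 4 were higher (2 without old MZM-0410 replicate 6, 9 or 10 or GRZ replicate 1, 3 or 4) and 3 lower, with a median of -0.01, and of 32 large subunit genes 1 was higher (2 without old MZM-0410 replicate 8) and 10 lower, with a median of -0.09; the 10 became 4 and 5 without old MZM-0410 replicates 6 and 8 and 5 and 6 without GRZ replicates 1 and 2. The smallest p among the large subunit genes was that of RPL3, with 610, 601, 575 and 568 CPM in old MZM-0410 and 768, 788, 760 and 773 CPM in GRZ (-0.38 ± 0.04, adjusted p = 0.000152), and here young MZM-0410 (568 to 671 CPM) was close to the old fish, with GRZ over MZM-0410 at 0.33 (adjusted p = 0.00396). RPS25 was higher in old MZM-0410, at 386 to 454 CPM against 325 to 334 CPM in GRZ (0.35 ± 0.06, adjusted p = 0.000974). In the mitochondrial ribosome 16 of 31 genes were lower and 0 higher, with a median of -0.40 (10 without old MZM-0410 replicate 9, 8 without GRZ replicate 1 and 9 without GRZ replicate 3). Its subunit MRPL37 had 19.6, 18.2, 16.5 and 17.2 CPM in old MZM-0410 and 33.3, 30.5, 34.2 and 24.1 CPM in GRZ (-0.76 ± 0.12, adjusted p = 0.00085). Of 47 translation factors and tRNA synthetases 22 were lower and 3 higher (median -0.27), with the initiation factor subunit EIF3B at 165, 158, 178 and 153 CPM in old MZM-0410 and 274, 271, 277 and 237 CPM in GRZ (-0.68 ± 0.07, adjusted p = 5.31e-05). Of 57 splicing genes 24 were lower and 6 higher (median -0.16).

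Some vascular genes were lower in old MZM-0410 than in GRZ. Of 24 tested endothelium and pericyte genes 9 were lower and 1 higher in old MZM-0410 than in GRZ, with a median of -0.25, although within MZM-0410 9 were higher and 0 lower at 39 wph (median 0.29). At 5 wph GRZ had 9 of them higher and 0 lower than MZM-0410 (median 0.46). The count of 9 lower became 4 without old MZM-0410 replicate 6 and 5 without old MZM-0410 replicate 9 or GRZ replicate 2. MFSD2A, a lipid transporter of brain capillaries in mammals, had 12.2, 14.6, 7.89 and 10.2 CPM in old MZM-0410, against 21.2, 21.1, 16.4 and 16 CPM in GRZ and 6.1 to 8.75 CPM in young MZM-0410, in its copy with the smallest p (-0.73 ± 0.18, adjusted p = 0.0106). At 12 wph this MFSD2A copy had 12.8 to 21.3 CPM in MZM-0410, which overlapped GRZ. Its other copies had -0.34 ± 0.11 (adjusted p = 0.0335) and -0.17 (adjusted p = 0.282). The endothelial receptor TIE1 had 35.3, 39.8, 36 and 36 CPM in old MZM-0410 and 49.3, 58, 44.9 and 59.5 CPM in GRZ (-0.51 ± 0.10, adjusted p = 0.00338), and for TIE1 the strain difference at 5 wph did not pass (0.25, adjusted p = 0.242). RGS5, a signalling regulator of pericytes, was the higher member, at 74.9 to 75.7 CPM in old MZM-0410 and 47.2 to 61.5 CPM in GRZ (0.43 ± 0.08, adjusted p = 0.00265), while its second copy had -0.50 (adjusted p = 0.33). Haemoglobin levels, a sign of blood in the tissue, were also lower in old MZM-0410 than in GRZ and are given below with the side comparisons.

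Of 41 extracellular matrix genes 22 were lower and 4 higher, with a median of -0.28. COL5A2, a fibrillar collagen, had 0.723, 1.08, 1.16 and 1.15 CPM in old MZM-0410, against 8.99, 8.51, 7.25 and 3.73 CPM in GRZ (-2.76 ± 0.32, adjusted p = 0.000139). SPARC, a collagen-binding glycoprotein, had 30.7 to 39.4 CPM in old MZM-0410 and 53 to 72.9 CPM in GRZ (-0.84 ± 0.12, adjusted p = 0.000434). COL2A1, the collagen of cartilage, rested in size on 1 library: it had 5.3, 4.67, 3.25 and 3.46 CPM in old MZM-0410 and 86.5, 10.1, 8.68 and 13 CPM in GRZ (-2.80 ± 0.74, adjusted p = 0.0147), and without GRZ replicate 1 the log2 fold change was -1.33. Copies of a pair of matrix genes passed the test between the strains and not with age. VCAN, a large proteoglycan, had 3.13, 3, 4.18 and 1.96 CPM in old MZM-0410, against 10.2, 11.7, 8.68 and 10.8 CPM in GRZ and 1.27 to 3.2 CPM in young MZM-0410, in 1 of its copies (-1.74 ± 0.21, adjusted p = 0.000203; age within MZM-0410 0.32, adjusted p = 0.487), and the other VCAN copy had -0.16 (adjusted p = 0.48). A copy of COL6A2, a microfibrillar collagen, had 17.8, 18.7, 19.7 and 23.8 CPM in old MZM-0410, against 4.78, 5.7, 7.06 and 7 CPM in GRZ and 11.3 to 19.7 CPM in young MZM-0410 (1.71 ± 0.15, adjusted p = 2.36e-05; age within MZM-0410 0.39, adjusted p = 0.0881). The other COL6A2 copy went the opposite way, at a mean of 7.92 CPM in old MZM-0410 against 17 CPM in GRZ (-1.09 ± 0.20, adjusted p = 0.00192).

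In several of the genes with the smallest p the libraries of GRZ stood apart from those of MZM-0410 at every age. GAS7, a cytoskeletal protein of neurons, had 167, 158, 181 and 170 CPM in old MZM-0410, 75.8, 85.4, 82.7 and 79.9 CPM in GRZ and 144 to 154 CPM in young MZM-0410 (1.07 ± 0.06, adjusted p = 2.34e-06). The log2 fold changes of GAS7 were 0.20 for age within MZM-0410 (adjusted p = 0.0239) and -0.87 for strain at 5 wph (adjusted p = 6.3e-06). Low in old MZM-0410 and in young MZM-0410 alike were CDC42EP4, an effector of the CDC42 GTPase, and the membrane protein gene GPR155. CDC42EP4 had 14.7, 13.3, 13 and 13.4 CPM in old MZM-0410, 38.9, 44.5, 41.2 and 36.9 CPM in GRZ and 13.4 to 18 CPM in young MZM-0410 (-1.56 ± 0.09, adjusted p = 2.29e-06), and GPR155 had 13.5 to 17.5 CPM in old MZM-0410, 42.6 to 48.1 CPM in GRZ and 16.9 to 21.9 CPM in young MZM-0410 (-1.55 ± 0.10, adjusted p = 2.54e-06). Second copies gave other values in old MZM-0410 over GRZ, with 0.56 for GAS7 (adjusted p = 0.00128), 0.24 for CDC42EP4 (adjusted p = 0.107) and 0.34 for GPR155 (adjusted p = 0.0137).

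Genes near 0 in GRZ included NAT1, an arylamine acetyltransferase, at 4.46, 3.11, 7.77 and 4.5 CPM in old MZM-0410 and 0, 0.1, 0 and 0.339 CPM in GRZ (5.40 ± 0.59, adjusted p = 9.42e-05, and 6.70 without GRZ replicate 4). PRSS48, a serine protease, had 10.8, 11.9, 7.77 and 6.23 CPM in old MZM-0410 and 0.455, 0.5, 0.763 and 0.903 CPM in GRZ (3.79 ± 0.30, adjusted p = 1.28e-05), and 5.98 to 15.1 CPM in young MZM-0410. A second PRSS48 copy had 0.80 (adjusted p = 0.0488). Among genes without a symbol, Nfu_g_1_017550 had 22.8, 26.2, 24.9 and 25.7 CPM in old MZM-0410, against 0.228, 0.3, 0.0954 and 0.113 CPM in GRZ (6.99 ± 0.22, adjusted p = 8.68e-09), and 22.9 to 25.2 CPM in young MZM-0410. The reverse was seen for Nfu_g_1_019312, with 0.603, 0.599, 0.928 and 0.577 CPM in old MZM-0410 and 18.3, 18.1, 12.8 and 20.3 CPM in GRZ (-4.64 ± 0.24, adjusted p = 9.41e-07). Nfu_g_1_015622 had 181, 181, 176 and 185 CPM in old MZM-0410, against 21.2, 26.5, 26.4 and 28.6 CPM in GRZ and 130 to 158 CPM in young MZM-0410 (2.82 ± 0.08, adjusted p = 8.68e-09). The last of these also passed the test of age within MZM-0410 (0.32, adjusted p = 0.00378), and NAT1, at 1.02 to 4.07 CPM in young MZM-0410, had 0.79 (adjusted p = 0.14). In Nfu_g_1_004548 young MZM-0410 was itself split: it had 23.1, 21.4, 31.3 and 25.1 CPM in old MZM-0410 and 165, 201, 193 and 216 CPM in GRZ (-2.93 ± 0.12, adjusted p = 1.43e-07), with 129, 121, 26.2 and 22.1 CPM in the young MZM-0410 libraries. No gene was at 0 counts in all 4 libraries of 1 group and at 50 or more in each library of the other, in either direction. Whether reads of the strains align equally well was not tested.

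Another set of the smallest p-values was shared with age: LRMP, ARHGEF28, AK5, DNAH10, TRMT1L and TMEM25 were higher, and ZNF185 lower, in old MZM-0410 than in GRZ and than in young MZM-0410. ARHGEF28, an exchange factor for small GTPases, had 91.1, 73.4, 80.6 and 87.7 CPM in old MZM-0410, against 29.5, 26.5, 28.7 and 36.2 CPM in GRZ and 25.8 to 40 CPM in young MZM-0410 (1.47 ± 0.10, adjusted p = 6.44e-06). LRMP, a protein of the endoplasmic reticulum, had 210, 182, 203 and 184 CPM in old MZM-0410, 91.8, 77.8, 93.1 and 97.2 CPM in GRZ and 72.1 to 119 CPM in young MZM-0410 (1.13 ± 0.08, adjusted p = 5.19e-06). AK5, a brain adenylate kinase, was higher by 0.88 ± 0.06 (adjusted p = 6.44e-06). In DNAH10, a dynein heavy chain of motile cilia, the strains also differed: it had 65.6, 85.3, 69.8 and 65.2 CPM in old MZM-0410, 28.1, 26, 22.3 and 22.2 CPM in GRZ and 43.3 to 46.1 CPM in young MZM-0410 (1.55 ± 0.11, adjusted p = 7.35e-06; strain -0.87, adjusted p = 0.000193). TMEM25 (1.46 ± 0.09, adjusted p = 3.77e-06) and TRMT1L (1.30 ± 0.10, adjusted p = 7.35e-06) had the same order of groups. They too differed between the strains at 5 wph, by -0.88 (adjusted p = 0.000553) and -0.50 (adjusted p = 0.00668). Age within MZM-0410 gave 0.67 for DNAH10, 0.58 for TMEM25 and 0.80 for TRMT1L (adjusted p = 0.000417, 0.000625 and 0.000295). Among the largest fold changes were also the keratin KRT76 (2.41 ± 0.41, adjusted p = 0.00137), RASGRP3, an activator of Ras-type GTPases (1.79 ± 0.30, adjusted p = 0.00121), and the prostacyclin synthase PTGIS (1.78 ± 0.35, adjusted p = 0.00314). ZNF185, a LIM domain protein, had 190, 197, 176 and 157 CPM in old MZM-0410 and 447, 476, 472 and 419 CPM in GRZ (-1.32 ± 0.07, adjusted p = 1.31e-06). Further copies of these genes were less changed: ARHGEF28 had 0.72 (adjusted p = 0.00218), TRMT1L 0.23 and 0.14 (adjusted p = 0.265 and 0.608), RASGRP3 -0.17 (adjusted p = 0.296) and KRT76 -0.48 (adjusted p = 0.00462).

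**Figure D5:**
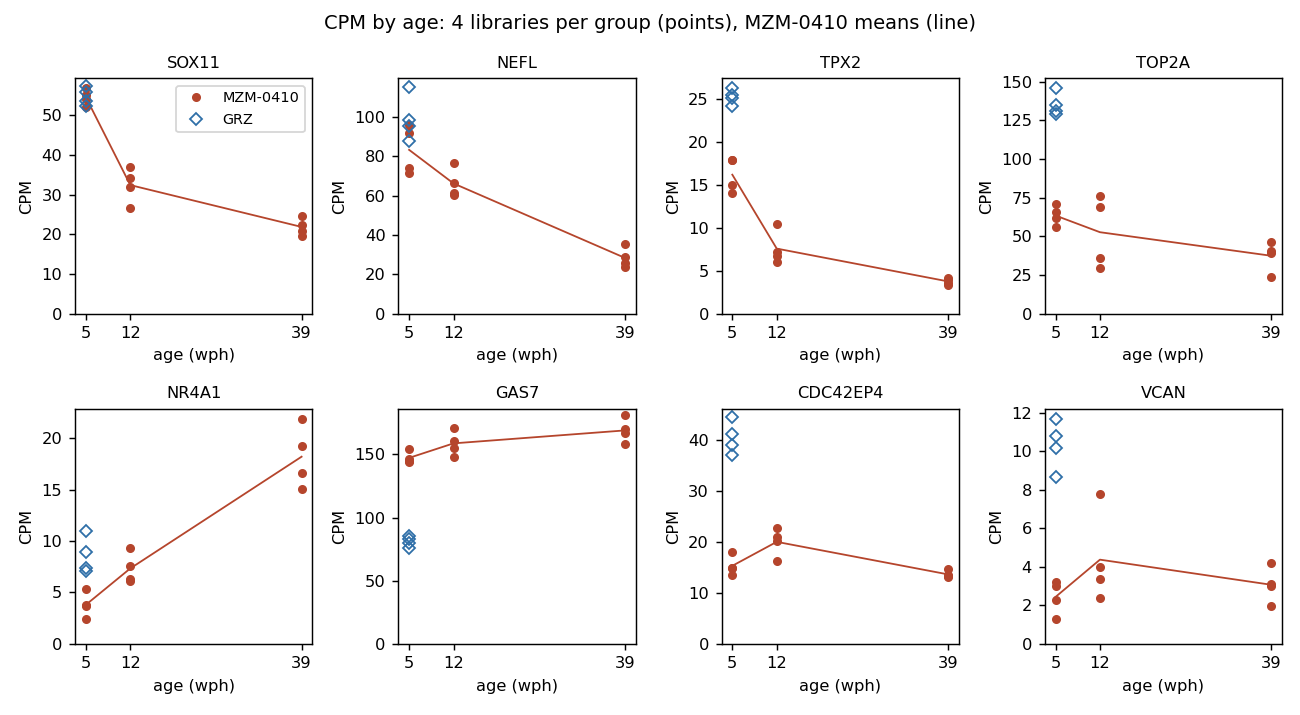
CPM (y axis, from 0) of 8 genes against age (x axis, weeks post hatching): filled red points are the 4 MZM-0410 libraries at each of 5, 12 and 39 wph, with a line through their means, and open blue diamonds are the 4 GRZ libraries at 5 wph. GRZ overlaps young MZM-0410 in SOX11 and NEFL, lies above it in TPX2, TOP2A and NR4A1, and stands apart from MZM-0410 at all 3 ages in GAS7 (75.8 to 85.4 CPM), in CDC42EP4 (36.9 to 44.5 CPM) and in VCAN (8.68 to 11.7 CPM).

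Insulin and TOR signalling genes moved in both directions, with 11 of 32 higher and 6 lower and a median of 0.18; the 11 became 6 and 7 without old MZM-0410 replicates 10 and 6 and 6, 7 and 5 without GRZ replicates 1, 2 and 3. IGF2, a growth factor, had 40.6, 39.7, 44.3 and 43.3 CPM in old MZM-0410 and 26.1, 24.3, 25.9 and 32.7 CPM in GRZ (0.64 ± 0.10, adjusted p = 0.000891). Of 28 DNA repair genes 4 were higher and 2 lower, with a median of 0.04, and the 2 became 1 or 4 when single libraries were left out (4 without GRZ replicate 4, 1 without GRZ replicate 1 or 2 or without old MZM-0410 replicate 6, 8 or 10). The damage-signalling kinase ATM was among the higher ones, at 65.9, 62.9, 63.9 and 74.5 CPM in old MZM-0410 and 43.8, 44.5, 44.5 and 49.2 CPM in GRZ (0.56 ± 0.08, adjusted p = 0.000434), with -0.45 for strain at 5 wph (adjusted p = 0.00578) and 0.11 for age within MZM-0410 (adjusted p = 0.362). In the list of oxidative stress and detoxification 5 of 16 genes were lower (3 without old MZM-0410 replicate 6 or 10 or GRZ replicate 3) and 1 was higher, with a median of -0.21, and the 1 higher gene became 0 without old MZM-0410 replicate 6, 9 or 10 or GRZ replicate 1, 2 or 3 and 2 without GRZ replicate 4.

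Markers of tissues next to the brain also differed between the groups. Of 12 tested skeletal muscle genes 8 were lower in old MZM-0410 and 0 higher, with a median of -1.20. MYLPF, a light chain of fast muscle myosin, had 2.17, 3.47, 4.06 and 1.85 CPM in old MZM-0410, against 80.9, 81.8, 142 and 81.5 CPM in GRZ (-5.04 ± 0.26, adjusted p = 9.41e-07), 16.5 to 94.4 CPM in MZM-0410 at 5 wph and 3.16 to 83.7 CPM at 12 wph. TNNI2, fast troponin I, had 0.482, 0.839, 1.62 and 0.462 CPM in old MZM-0410 and 11.4, 14.1, 21.9 and 19.1 CPM in GRZ (-4.25 ± 0.34, adjusted p = 1.21e-05), and the muscle genes MYH13 (-5.32 ± 0.63, adjusted p = 0.000166) and AMPD1 (-3.48 ± 0.41, adjusted p = 0.000174, and -4.15 without old MZM-0410 replicate 9) had the same order. Every old MZM-0410 library was below every GRZ library in these genes. The rule that named them asked for groups without overlap, so this is not a separate result. The summed level of the list was 359 to 438 CPM in old MZM-0410 and 566 to 739 CPM in GRZ. Copies of PGAM2, TPM1 and MB, with fish symbols that include pgam1a, tpm3 and cygb2, made up most of the old MZM-0410 sum. The sum therefore understates the difference in MYLPF, TNNI2, MYH13 and AMPD1. Among the 8 lower genes were both PGAM2 copies (-0.58 ± 0.08, adjusted p = 0.000335, and -0.35 ± 0.11, adjusted p = 0.0371). The collagen genes COL5A2 and COL2A1 described above were lower in old MZM-0410 too, but the single libraries differed. MYLPF was highest in GRZ replicate 3 (142 CPM), and COL2A1 in GRZ replicate 1 (86.5 CPM). The part of muscle in the collagen result was not tested.

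Blood markers were low in old MZM-0410 as well. A haemoglobin gene named HBG1, whose fish symbol is hbae1, had 0.121, 0, 0.348 and 0 CPM in old MZM-0410, against 6.49, 9.31, 3.53 and 9.94 CPM in GRZ (-5.79 ± 0.61, adjusted p = 7.28e-05, and -7.09 without old MZM-0410 replicate 9). Another gene with the orthologue name HBG1, fish symbol ba1, had 19.8, 77.3, 77.1 and 16.7 CPM in old MZM-0410 and 131, 274, 147 and 226 CPM in GRZ (-2.02 ± 0.45, adjusted p = 0.00592). Their fish symbols differ, so they need not be copies of 1 gene. Of 8 blood genes 3 were lower and 0 higher (5 lower without old MZM-0410 replicate 6, 8 or 9), and the list summed to 138 to 213 CPM in old MZM-0410 and 291 to 463 CPM in GRZ. Age within MZM-0410 gave -1.57 for the ba1 gene (adjusted p = 0.03), whereas the vascular list had a positive median there. The hbae1 gene was not tested for age. GRZ over MZM-0410 at 5 wph gave 0.45 for ba1 (adjusted p = 0.397) and 2.51 for hbae1 (adjusted p = 0.0112). The part of blood in the vascular result was not tested. GH1, the growth hormone of the pituitary, varied by library and did not pass, with 66.9, 138, 0.464 and 336 CPM in old MZM-0410 and 63, 48, 36.6 and 9.37 CPM in GRZ (1.80 ± 0.89, adjusted p = 0.146). Leaving out GRZ replicate 4 gave 3133 genes higher and 3422 lower in old MZM-0410, the highest counts of any omission.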

How the data were processed

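A single table deposited by the authors holds unnormalized read counts of each annotated gene in 16 libraries of total brain RNA. Per the labels and the study's methods, reads were extracted with bcl2fastq 1.8.4, aligned with TopHat2 2.1.0 to the Nfu_20150522 genome and counted with featureCounts 1.5.0 on the genebuild_v1.150922 annotation, without regard to strand although the kit marks it, so overlapping and antisense genes cannot be told apart. Each column is taken as 1 fish, as the study describes for MZM-0410, and otherwise p-values measure only the spread between these libraries. For its proteome the study kept the 4 best correlated samples of an age, and whether the same choice was made for these libraries is not given in the sources used here. Genes were filtered with filterByExpr, scaled with TMM and compared by edgeR (version 4.0.16, R 4.3.3) and its two-sided quasi-likelihood test, with Benjamini-Hochberg adjustment, on the 8 libraries of each comparison. Values after ± are SE, the log2 fold change divided by the root of F. CPM values use TMM scaling and describe levels only. DESeq2 1.42.0, other scalings and filters, thinning, a fit of all 16 libraries and leaving out each library were tried. The test was tried on 17908 genes simulated for old MZM-0410 over GRZ, with 99 changed 2-fold and 97 changed 4-fold. Of those changed 2-fold, 81.8% were called. Far fewer genes were changed there than the 31.2% called in the real comparison, so this share does not give the sensitivity reached in it.

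Symbols of human orthologues came from the study's supplementary tables, held in part, as identities only: 5369 of 26739 genes (20.1%) had 1 symbol, and 14 with several were left unnamed. The 40 gene lists hold 1555 symbols, of which 795 (51.1%) had a tested gene. Members and lists were chosen with earlier results of these data known. Named are, in each direction, 8 genes ranked by p and 8 ranked by size of fold change (only where the log2 CPM averaged at least 1), among genes with a symbol, past the threshold and with groups that do not overlap, the 4 members of each list with the smallest p with their further copies, and at most 2 genes per direction without a symbol. Some genes that this rule selects are not reported here.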

Additional observations from a re-analysis of the deposited data

Results flagged for a closer look

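In 10 groups of 4 libraries, 1 library lay far from the other 3 by Dixon's criterion, out of 214 groups looked at, and chance gives about 1 in 20. GRZ replicate 4 was this library in 4 genes: ELOVL1 (38.5 CPM, others at least 52.8), EIF3B (237 CPM, others at least 271), NR3C1 (53.4 CPM, others at most 48.7) and ATM (49.2 CPM, others at most 44.5). In all 4 it lay on the side of the old MZM-0410 libraries. GRZ replicate 3 had 142 CPM of MYLPF (others at most 81.8), and GRZ replicate 1 had 86.5 CPM of COL2A1 (others at most 13). In old MZM-0410, replicate 6 had 30.5 CPM of SOD2 (others at most 28.1) and 29.5 CPM of F3 (others at least 33.2), replicate 8 had 39.8 CPM of TIE1 (others at most 36), and replicate 9 had 0.928 CPM of Nfu_g_1_019312 (others at most 0.603). Apart from COL2A1, whose fold change without the library is given above, none of these fold changes moved by more than 1.5 times when that library was left out.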

How the results depend on the processing

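Old MZM-0410 over GRZ gave 2735 to 3000 genes higher and 2708 to 3340 lower under other size factors, filters, DESeq2, thinned counts or a fit of all 16 libraries, and 2070 to 3133 and 2112 to 3422 when 1 library was left out. GRZ over MZM-0410 at 5 wph was less stable, with 599 to 1265 and 456 to 1245 when 1 library was left out, and old over young MZM-0410 gave 1607 to 2070 and 1712 to 2235. No gene was at 0 in 1 group and at 50 counts or more in each library of the other. With a minimum of 20 counts 1 gene was present in GRZ only, Nfu_g_1_003422. With at most 1 count per library allowed it was a different gene, Nfu_g_1_004993. A tally of single genes covered those named by rule, for small p or large fold change, a choice that favours stable calls. Of its 164 genes past the threshold 6 lost the call in some setting and 0 changed sign. This share does not give the stability of calls in general, since the counts of all genes above moved far more. The tally does not hold every further copy named above, such as the MFSD2A copy at -0.34, which also lost its call. List medians moved by 0.01 or less under other scalings. No paired analysis was possible because the groups compared share no replicate numbers. Depth limits the genes near 0 CPM.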
